A study of Mus musculus with 9 samples.

Results

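Levels of 10 genes of the Notch pathway, 4 receptors (Notch1, Notch2, Notch3 and Notch4), 3 ligands (Jag1, Jag2 and Dll1) and 3 transcriptional targets (Hes1, Hey1 and Heyl), were followed in tumours of a mouse synovial sarcoma model and in normal skeletal muscle. The genes were chosen by symbol, as every probe set whose annotation gives one of these symbols and no other, which gave 18 of the 25581 single-symbol probe sets and 10 of the 14440 genes. Notch receptors are read by direct contact: a Jagged or Delta-like ligand on one cell binds the receptor on its neighbour, the receptor is cut by an ADAM protease and then by gamma-secretase, and its intracellular part joins RBPJ and Mastermind in the nucleus. Genes of the HES and HEY families, which encode transcriptional repressors, are common targets of that complex. In skeletal muscle, Notch signalling is known for keeping satellite cells undifferentiated, and in vessels for signalling between endothelial and mural cells.

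Total RNA of 5 tumours and 4 muscles was measured on Affymetrix arrays, with 1 array for each. All tumours grew in mice labelled MYF-5 CRE/SSM2 and are described as SYT-SSX tumours; the SYT-SSX fusion protein marks synovial sarcoma, and Myf5, whose name the Cre carries, is a transcription factor of muscle precursors. Tumour 1 is labelled CC23, tumour 2 CC17-B, tumour 3 CC17-A, tumour 4 SSM5 and tumour 5 SSM4. Muscles 1 to 4 were wild type and came from a hind limb, the intercostal muscle, a forelimb and a further hind limb. Ages, treatments and strains are not given in the sources used here, and genotype differs together with tissue. No label ties each array to its own animal, and whether tumours 2 and 3, both labelled CC17, came from 1 mouse is not given. The p-values here thus cover the spread between these samples alone, and precision is limited by the number of arrays.

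Levels are given as scaled intensity, the deposited signal multiplied by 0.909 to 1.29 to give all arrays the same trimmed mean. The floor of an array, the 40th percentile of its values, lay between 96.5 and 137 units, and a probe set was tested when 4 or more arrays reached it. A probe set was called higher or lower when the tumours differed from muscle at an adjusted p under 0.05 in limma, with Benjamini-Hochberg adjustment over all 17433 probe sets tested. The tissue labels fitted their markers in part: the summed intensity of 9 muscle fibre genes was 342 to 121065 in tumours and 414144 to 559995 in muscles. Tumours 1, 2 and 5, with sums of 107177, 37417 and 121065, thus still held muscle fibre transcripts. So did tumour 3, at a lower sum of 5882. The ratio of the 3′ to the 5′ probe set of Actb, a measure of RNA integrity, was 12.7 in tumour 1 and 4.54 in tumour 4, against 1.99 to 2.90 in the other tumours and 1.62 to 1.93 in muscles.

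Of the 10 genes, 4 were called higher in tumours on at least 1 probe set. They are the receptor Notch2 (1 of its 2 probe sets), the ligand Jag1 (2 of 3) and the targets Hes1 and Hey1. Of the 18 probe sets, 16 passed the filter on dim values, and every gene had at least 1 of them. Of these 16, 5 were called higher (31.2%, beside 25.7% of all probe sets tested), 0 were called lower (beside 16.5%) and 11 were not called. All 5 were at least 2-fold higher (beside 19.7% of all probe sets), and in the same 5 all tumours lay above all muscles (beside 21.7%). Over all probe sets, 8791 had an unadjusted p under 0.05, and 60.8% of the 7358 calls were higher. That share was 49.8% with arrays centred on their median, 53.5% as deposited, 52.3% with quantile normalization and 73.9% with arrays centred on genes of the ribosome and proteasome. The median log2 fold change was 0.32 for the members tested and 0.18 for all probe sets tested, so the changes below are read against a table that itself leaned upward. At 1 probe set per gene, 4 of 10 members were called higher and 0 lower, beside 30.1% of 10646 genes higher and 48.1% called either way. With so few members, the shares called higher lie near those of all probe sets and genes, so the counts do not set the members apart. Without tumours 1 and 4, those with the highest Actb ratios, 4 of 15 member probe sets tested were called higher. The 4 were of Notch2, Jag1, Hes1 and Hey1. In that setting, 3686 of all 16184 probe sets tested were called higher. In bulk tissue, fewer cells of a type and less RNA per cell cannot be told apart.

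Some other cell classes had markers that were called higher in tumours as well, and others did not. Of all genes tested at 1 probe set per gene, 30.1% were called higher and 18.0% lower. All 4 proliferation markers tested were called higher, with sums of 5719 to 13538 units in tumours and 291 to 1346 units in muscles. All 5 epithelial markers tested were called higher, and so were 2 of 4 leukocyte and macrophage markers tested. The sums of the 5 leukocyte and macrophage markers held were 5199 to 10709.5 units in tumours and 3645 to 4316 units in muscles. Of these, Itgam was not tested and had the lower mean in tumours, at 52.5 units against 122.6 units in muscles. Of 7 neural progenitor and neuron markers held, 2 were tested and 1 was higher, Sox2, at 1289.6 to 5097 units in tumours and 3.14 to 28.8 units in muscles. Of 6 fibroblast markers tested, 2 were higher and 1 lower. Of 4 Schwann cell markers tested, 0 were higher and 2 lower, and of 2 adipocyte markers tested 0 were called higher or lower. S100b, a lower Schwann cell marker, was at 1243 units in muscle 2 and 194 to 223 units in the other muscles. The sums of the 3 adipocyte markers held were 478 to 32880 units in tumours and 28164 to 108396 units in muscles, highest in muscle 2. The part of these classes in the levels of Notch2, Jag1, Hes1 and Hey1 was not tested.

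The promoters of Jag1 and Notch2 are shown because both genes rose at the start of the pathway; they were chosen after the values were seen. The 250 bases before the RefSeq start (GRCm38.p6) are printed 5′ to 3′ on the gene's strand, and capitals mark the letters of an N-box, CACNAG on either strand, a site that HES repressors are known to bind. The Jag1 window is chr2:137116521-137116770 on the minus strand, and the Notch2 window is chr3:98013288-98013537 on the plus strand.
Jag1: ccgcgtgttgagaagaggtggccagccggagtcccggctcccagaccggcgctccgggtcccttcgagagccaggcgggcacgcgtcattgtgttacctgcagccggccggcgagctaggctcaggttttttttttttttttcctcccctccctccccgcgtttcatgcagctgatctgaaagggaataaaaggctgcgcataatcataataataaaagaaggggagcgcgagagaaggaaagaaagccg
Notch2: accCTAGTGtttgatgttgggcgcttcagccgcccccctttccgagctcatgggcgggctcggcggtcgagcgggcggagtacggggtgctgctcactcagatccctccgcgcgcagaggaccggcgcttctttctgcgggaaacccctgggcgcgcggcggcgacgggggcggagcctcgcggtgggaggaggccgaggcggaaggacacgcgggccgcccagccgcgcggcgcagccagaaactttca
Of the 10 members, 7 matched a RefSeq promoter, with 8 windows in all; Hes1, Hey1 and Heyl were not matched. The Jag1 window had no N-box letters, and the Notch2 window had them once, 247 bases before the start. N-box letters also stood in the windows of Notch1 (108 bases before the start) and Notch3 (204 and 159 bases before it). They are common, in 36.67% of 32851 mouse windows of the same length. The RBPJ letters GTGGGAA, on either strand, were in 5.42% of all windows and in none of the 8, and the E-box CACGTG was in 6.02% and in none of the 8. Only N-box letters were found in these windows, so no overlap between the motifs was possible. A match of letters is a description and not evidence of binding.

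**Figure D1:**
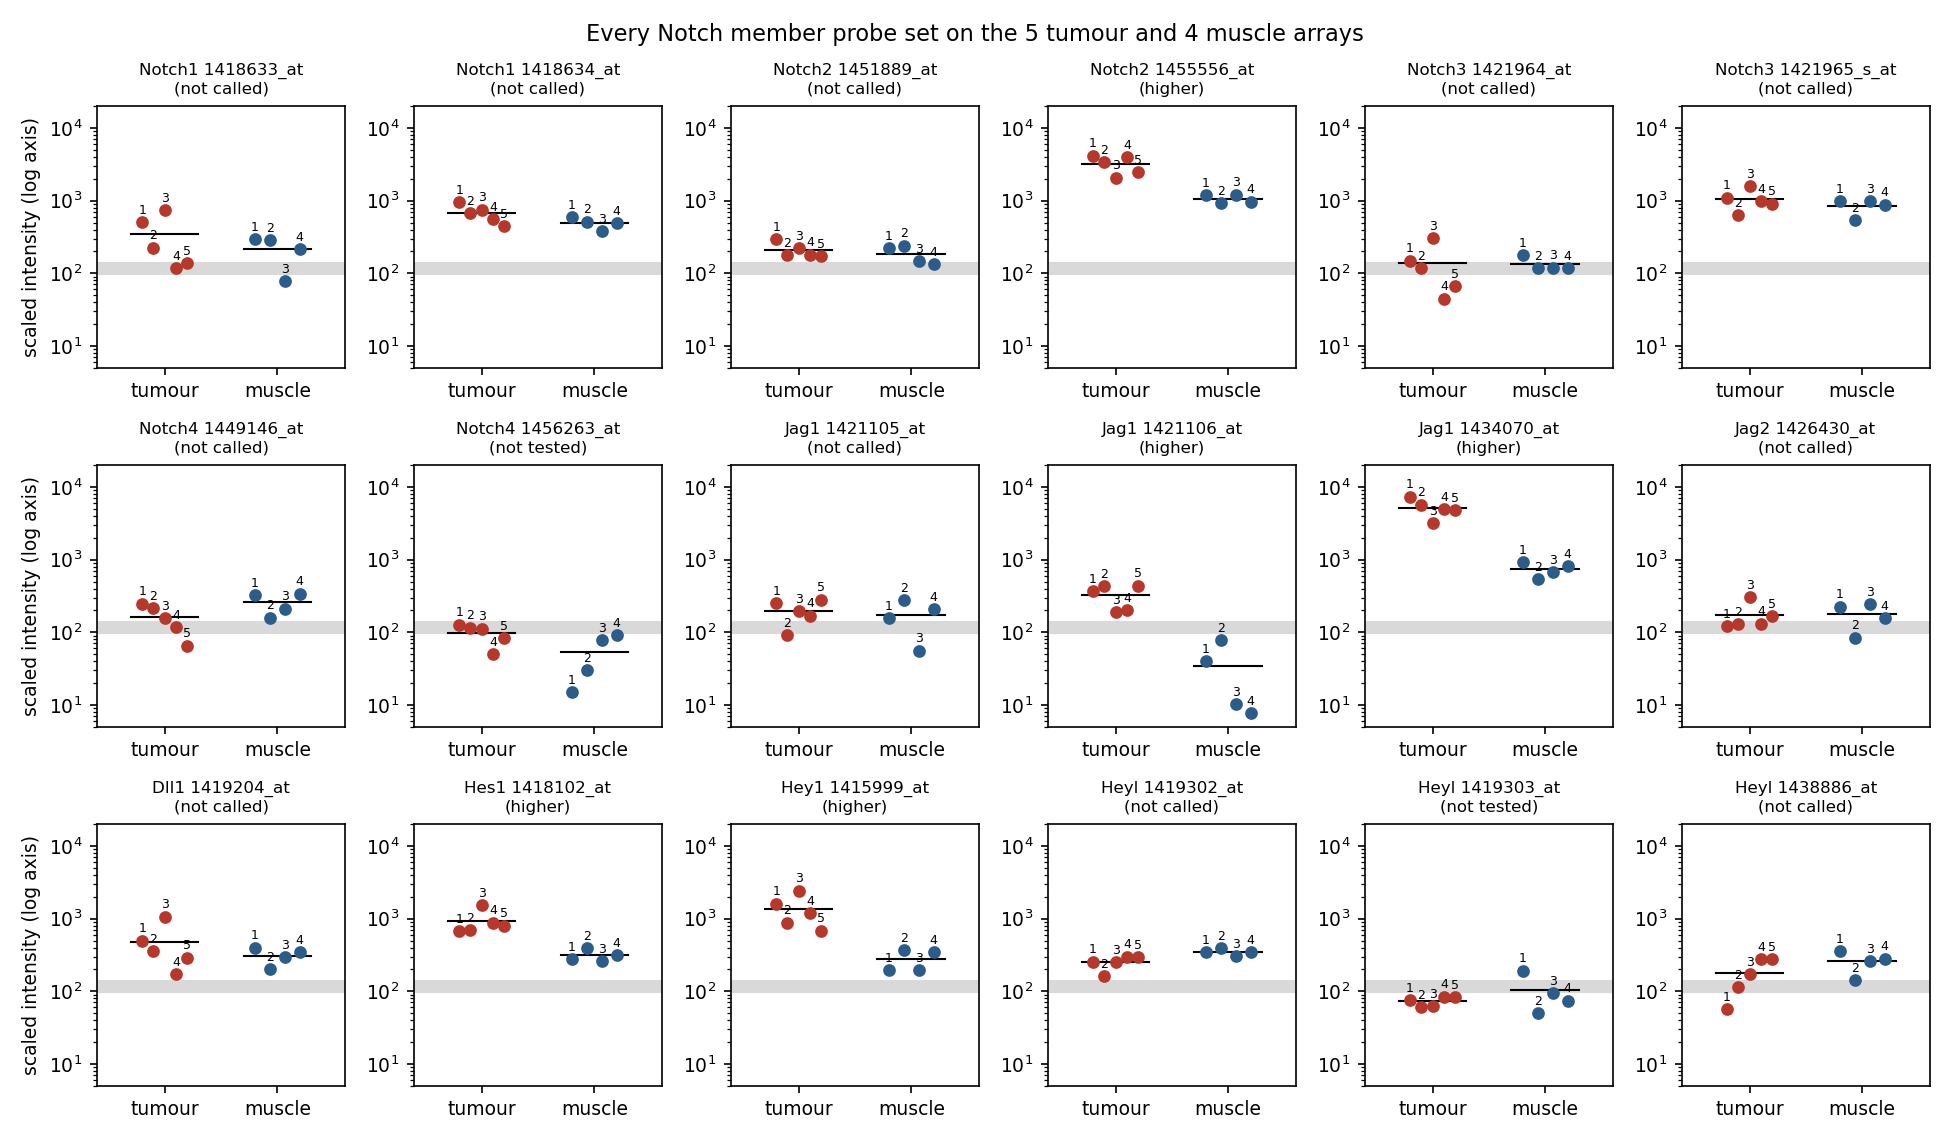
Scaled intensity (log axis) of each probe set of the 10 members, tumours in red at the left and muscles in blue at the right of each panel, with the replicate number as the symbol, the group mean as a black line and the range of the array floors as a grey band. For Jag1 1434070_at, the tumours sit between 3209 and 7377 units, all above the muscles at 536 to 918 units.

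Among the receptors, Notch2 alone was called. Notch2, a receptor known for its part in B cell, kidney and bile duct development, had 4168, 3390.0, 2066, 3988 and 2495 units in tumours 1 to 5 on its brighter probe set, 1455556_at, against 1180.3, 927, 1206 and 966 units in muscles 1 to 4. Every tumour lay above every muscle, with tumour 3 the lowest of the tumours. The means were 3221 ± 918 units in tumours (SD, n = 5) and 1069.8 ± 144 units in muscles (SD, n = 4), a log2 fold change of 1.53 (SE 0.24, 95% confidence interval 1.01 to 2.06, limma adjusted p = 0.000454), or 2.90-fold. The dimmer Notch2 probe set, 1451889_at, had 170.4 to 295 units in tumours and 133 to 240.1 units in muscles. Its groups overlapped and its log2 fold change of 0.18 (interval -0.44 to 0.79, limma adjusted p = 0.644) did not pass the test, so the 2 probe sets of Notch2 disagreed.

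Notch1, the receptor best known from T cell development and from T cell leukaemia, had 951, 679, 753, 558 and 449.5 units in tumours 1 to 5 on 1418634_at, against 592, 512, 382 and 488 units in muscles 1 to 4. Tumours 1 to 3 stood above all muscles and tumours 4 and 5 within their range. The log2 fold change was 0.42 (SE 0.25, interval -0.12 to 0.96, limma adjusted p = 0.197). The other probe set, 1418633_at, spread from 118 to 735 units in tumours and from 78.3 to 293 units in muscles, with a log2 fold change of 0.43 (limma adjusted p = 0.557). Neither was called, although the first was called higher with arrays centred on genes of the ribosome and proteasome (log2 fold change 0.68, limma adjusted p = 0.0399).

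Notch3, the receptor of vascular smooth muscle and pericytes, had 1106, 637, 1576, 989 and 909 units in tumours 1 to 5 on 1421965_s_at, against 983, 543, 987 and 883 units in muscles 1 to 4. Only tumours 1, 3 and 4 exceeded the highest muscle and the log2 fold change was 0.27 (SE 0.28, interval -0.34 to 0.89, limma adjusted p = 0.467). Its second probe set, 1421964_at, lay near the floor, at 44.8 to 305 units in tumours and 117 to 177 units in muscles (log2 fold change -0.18, limma adjusted p = 0.778).

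Notch4, the receptor known chiefly from endothelium, was the one receptor with a lower mean on its brighter probe set. That probe set, 1449146_at, had 248, 216, 156, 118 and 65.4 units in tumours 1 to 5, against 326, 158, 211 and 341 units in muscles 1 to 4. The groups overlapped, since tumours 1 and 2 lay above muscles 2 and 3. The log2 fold change was -0.69 (SE 0.39, interval -1.54 to 0.15, limma adjusted p = 0.170), and it was called lower only with array weights (-1.07, limma adjusted p = 0.0199). The other probe set, 1456263_at, reached the floor on 1 tumour array and on 0 muscle arrays and was not tested. Of 11 endothelial marker genes tested, 0 were called higher and 6 lower, beside 30.1% and 18.0% of all genes tested. Their summed intensity was 2888 to 4757 units in tumours and 5506 to 7394 units in muscles. The defining markers Pecam1 (222 ± 148 units in tumours, n = 5, and 475 ± 62.8 units in muscles, n = 4, SD) and Cdh5 (298 ± 54.5 and 414 ± 106 units) did not pass the test, at limma adjusted p = 0.059 and 0.168. The part of endothelial content in the Notch4 values was not tested.

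Of the ligands, Jag1 alone was called, on 2 of its probe sets. Jag1, a Jagged ligand whose human gene is mutated in Alagille syndrome, had 7377, 5707, 3209, 4973 and 4793 units in tumours 1 to 5 on its brightest probe set, 1434070_at, against 918, 536, 669 and 822 units in muscles 1 to 4. The lowest tumour, tumour 3, was still well above the highest muscle. The means were 5212 ± 1514 units in tumours (SD, n = 5) and 736 ± 168 units in muscles (SD, n = 4). The log2 fold change was 2.77 (SE 0.26, interval 2.21 to 3.34, limma adjusted p = 1.79e-05), or 6.84-fold.

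A second Jag1 probe set, 1421106_at, also rose. It had 366, 434, 189.5, 202 and 439.6 units in tumours 1 to 5, against 39.7, 78.6, 10.2 and 7.75 units in muscles 1 to 4. Every muscle lay below its array's floor, so the level in tumours was at least 2.98-fold higher (log2 fold change 2.92, limma adjusted p = 0.000565); this bound sets the tumour mean against the floors. Its muscle mean of 34.0 ± 33.0 units (SD, n = 4) was 19.2 ± 17.8 units without muscle 2 (n = 3). The third Jag1 probe set, 1421105_at, had 91.2 to 281 units in tumours and 55.9 to 277 units in muscles, with groups that overlapped, and was not called (log2 fold change 0.26, interval -0.71 to 1.22, limma adjusted p = 0.672). Jag1 was thus higher on 2 of its 3 probe sets.

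Jag2 and Dll1, the other ligands, did not pass the test. Jag2, a Jagged ligand known from limb and thymus development, had 122, 129, 304, 131 and 167 units in tumours 1 to 5, against 226, 84.5, 244 and 155 units in muscles 1 to 4. Tumour 3 was the highest of all 9 arrays and the other tumours lay within the muscles' range, with a log2 fold change of -0.04 (SE 0.37, interval -0.85 to 0.78, limma adjusted p = 0.947). Dll1, a Delta-like ligand that acts in somite formation and in muscle precursors, had 495, 358, 1066, 171 and 289.9 units in tumours 1 to 5, against 399, 204, 296 and 342 units in muscles 1 to 4. Again tumour 3 was the highest, tumour 4 was below all muscles, and the log2 fold change was 0.37 (SE 0.44, interval -0.59 to 1.33, limma adjusted p = 0.521).

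Both Hes1 and Hey1 rose. Hes1, a repressor of differentiation genes in many progenitor cells, had 671, 695, 1526, 885 and 797 units in tumours 1 to 5, against 278, 395, 260.5 and 311 units in muscles 1 to 4. All tumours were above all muscles, and tumour 3 stood far above the other tumours. The means were 915 ± 352 units in tumours (SD, n = 5) and 311 ± 59.5 units in muscles (SD, n = 4), a log2 fold change of 1.46 (SE 0.27, interval 0.87 to 2.04, limma adjusted p = 0.00119), or 2.75-fold.

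Hey1, a repressor known from vessel, heart and muscle precursor cells, had 1606, 884, 2424, 1192 and 685 units in tumours 1 to 5, against 195, 368, 195 and 346 units in muscles 1 to 4. Tumour 3 was again the highest, and the lowest tumour, tumour 5, was still above every muscle. Hey1 averaged 1358 ± 689.8 units in tumours (SD, n = 5) and 276 ± 94.0 units in muscles (SD, n = 4). The log2 fold change was 2.15 (SE 0.37, interval 1.35 to 2.95, limma adjusted p = 0.000741), or 4.45-fold.

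Heyl, the third target, did not rise. Heyl, a HEY family repressor known from smooth muscle, pericytes and satellite cells, had 255, 160.3, 251, 300.2 and 296 units in tumours 1 to 5 on 1419302_at, against 348, 394, 306 and 345 units in muscles 1 to 4. All tumours lay below all muscles, the one such member probe set (14.5% of all probe sets tested had this order), yet the log2 fold change of -0.46 (SE 0.24, interval -0.99 to 0.06, limma adjusted p = 0.140) did not pass the test. It was called lower with quantile normalization (-0.76, limma adjusted p = 0.0202). Heyl 1438886_at had 56.1 to 279 units in tumours and 143 to 355 units in muscles (log2 fold change -0.61, limma adjusted p = 0.293), and 1419303_at was too dim to test. Of 8 pericyte and smooth muscle markers tested, 0 were called higher and 3 lower, beside 30.1% and 18.0% of all genes tested. Their sums were 6214 to 13039 units in tumours and 17391 to 24658 units in muscles. Of 6 satellite cell and myoblast markers tested, 1 was higher (Pax7, 229 ± 70.2 units in tumours and 93.3 ± 10.2 units in muscles) and 3 were lower, with sums of 390.0 to 1173 units in tumours and 1561 to 2472 units in muscles. The part of these cells in the Heyl values was not tested.

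**Figure D2:**
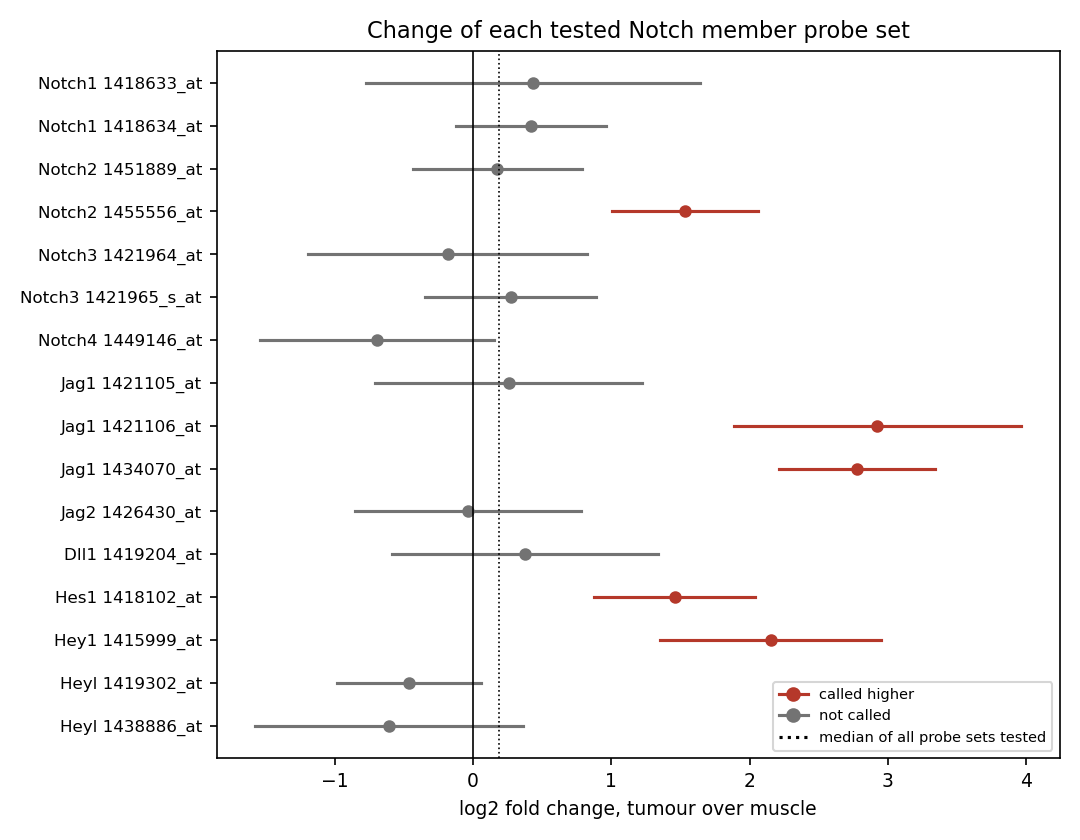
Log2 fold change of tumour over muscle with its 95% confidence interval for the member probe sets tested; the dotted line is the median of all probe sets tested, 0.18. The 5 called probe sets, of Notch2, Jag1, Hes1 and Hey1, have intervals that lie above 0, and the other 11 intervals cross 0.

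Within a role, members changed unequally on their brightest probe sets. For each pair, the within-array difference of log2 levels was compared between tumours and muscles by a two-sided exact permutation test over 126 splits, whose smallest p is 0.0159, on the brightest probe set of each gene. Such a difference does not depend on the scaling of an array, apart from the pseudocount. Of 12 pairs, 8 had an adjusted exact p under 0.05. Among ligands, the change of Jag1 exceeded that of Jag2 by 2.81 and that of Dll1 by 2.40 on the log2 scale, with every tumour above every muscle (exact p = 0.0159, adjusted 0.0381, for each). Among targets, Hes1 exceeded Heyl by 1.92 and Hey1 exceeded Heyl by 2.62, with the same exact p and the same order. Hey1 and Hes1 did not pass (Hes1 minus Hey1 -0.70, exact p = 0.0476, adjusted 0.0635), nor did Jag2 and Dll1 (Jag2 minus Dll1 -0.41, exact p = 0.317, adjusted 0.346).

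Among receptors, Notch2 exceeded Notch4 by 2.23 (exact p = 0.0159, adjusted 0.0381). Notch2 exceeded Notch3 by 1.26, Notch1 exceeded Notch4 by 1.11, and Notch1 minus Notch2 was -1.12, each with 4 of 5 tumours beyond all muscles (exact p = 0.0317, adjusted 0.0476). Notch1 minus Notch3 was 0.15 (exact p = 0.683, adjusted 0.683) and Notch3 minus Notch4 was 0.96 (exact p = 0.111, adjusted 0.133). No pair passed when any one array other than tumour 3 was left out, and 7 pairs passed without tumour 3. Leaving out an array lowers the number of splits and raises the smallest exact p. After adjustment, a pair could then pass only if most pairs reached that smallest p together. These counts thus do not tell which pairs depend on a single array, nor do they set tumour 3 apart. Directions of the 8 pairs were kept under every other scaling, pseudocount and left-out array, but not under every probe set. With Notch2 read on 1451889_at, Notch1 minus Notch2 was 0.24 (adjusted exact p = 0.254), Notch2 minus Notch3 was -0.094 (0.825) and Notch2 minus Notch4 was 0.87 (0.167). With Jag1 read on 1421105_at, Jag1 minus Dll1 was -0.12 (adjusted exact p = 0.857) and Jag1 minus Jag2 was 0.29 (0.762), while on 1421106_at they were 2.55 and 2.96 (0.0476 for each). With Notch1 on 1418633_at, neither its pair with Notch2 nor that with Notch4 passed (adjusted exact p = 0.267 and 0.119), and with Notch3 on 1421964_at, its pair with Notch2 did not (0.0847).

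The tumours differed among themselves in a pattern that ran across the members. Tumour 3, labelled CC17-A, had the highest level among the 5 tumours of Hes1, Hey1, Dll1, Jag2 and Notch3, and the lowest of Jag1 and Notch2 on their brightest probe sets. On the log2 scale and relative to the muscle mean, tumour 3 was at 2.25 for Hes1, where the other tumours were at 1.09 to 1.48. For Dll1 it was at 1.77, with the others at -0.77 to 0.69. For Jag1 it was at 2.13, with the others at 2.70 to 3.33. Nrarp, a target and feedback inhibitor of the Notch complex, was also highest there, at 1742 units, against 505 to 987 units in the other tumours. So was Hes5, a HES repressor of neural progenitors, at 1147 units, with 62.1 to 189 units in the other tumours and 8.05 to 57.0 units in muscles. Hes5 reached the floor on 3 tumour arrays and 0 muscle arrays, too few to be tested, and was chosen after its values were seen. The summed intensity of 5 epithelial markers was 13575 units in tumour 3, 2486 to 3709 units in the other tumours and 344 to 711 units in muscles. Of them, Epcam was at 4697 units in tumour 3 and 397 to 725 units in the other tumours. The sum of 7 neural progenitor and neuron markers was 7244 units in tumour 3, 1918 to 6492 units in the other tumours and 404 to 767 units in muscles. Within that list, 3 neuronal genes stood apart in tumour 3. They were named after their values were seen and reached the floor on too few arrays to be tested. Dcx was at 1639 units there and at 3.41 to 148 units in the other tumours, Tubb3 at 1349.5 units and 55.3 to 168 units, and Elavl4 at 864 units and 32.5 to 106 units. The rest of the list was highest in tumour 1. Sox2 was at 2742 units in tumour 3 and 5097 units in tumour 1, and Nes at 542 and 966 units. Nefl (70.5 and 90.0 units) and Nefm (37.2 and 77.2 units) lay below the floor in every tumour. The part of epithelial and neuronal transcripts in the values of tumour 3 was not tested, and with 1 such tumour none of this was tested.

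The tumours labelled SSM, tumours 4 and 5, held the lowest Notch4 levels, 118 and 65.4 units, against 156 to 248 units in those labelled CC. They also held the lowest Notch1 levels on 1418634_at, 558 and 449.5 units, against 679 to 951 units in those labelled CC. Both orders rest on the scaling, which multiplied tumour 3 by 1.24 and tumour 4 by 0.909. In the deposited values, tumour 3, labelled CC17-A, lay slightly below tumour 4 on both probe sets. Neither difference was tested.

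**Figure D3:**
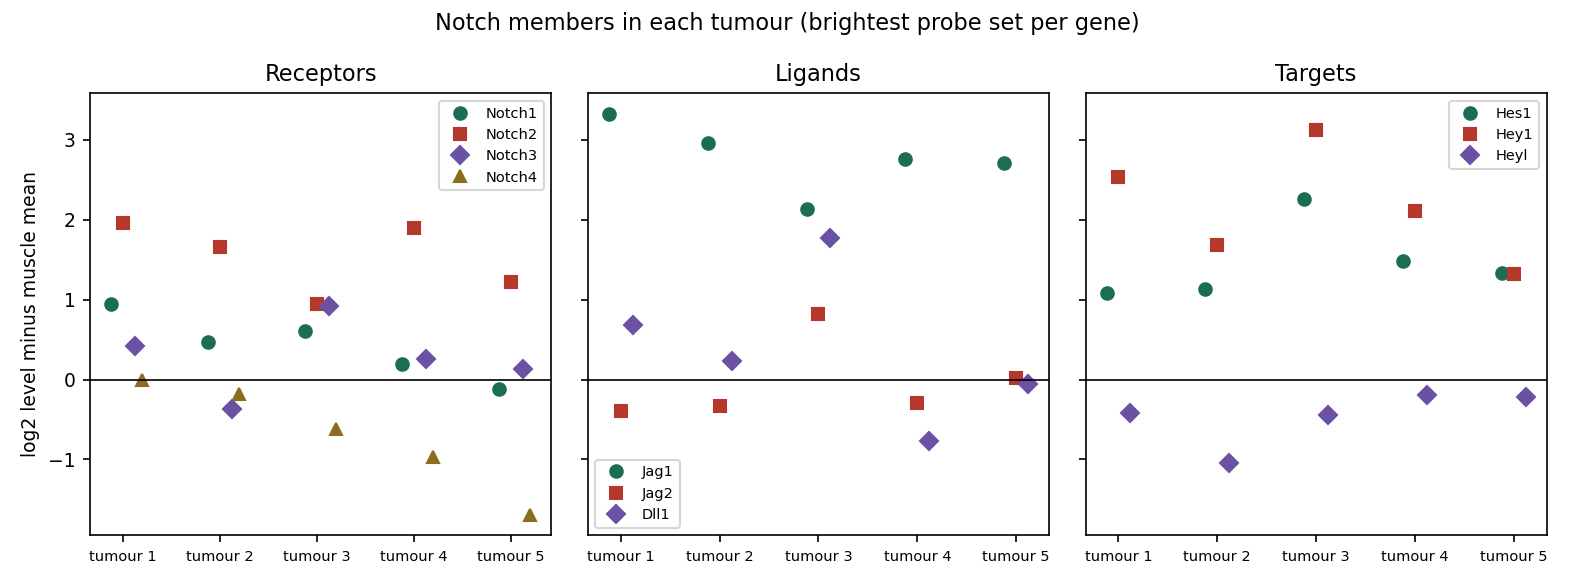
Log2 level of each tumour minus the muscle mean, for the brightest probe set of each member. Tumour 3 is the highest point for Hes1 (2.25), Hey1 (3.12), Dll1 (1.77), Jag2 (0.82) and Notch3 (0.92), and the lowest for Jag1 (2.13) and Notch2 (0.95).

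The rest of the pathway was read from a list of 65 other genes, of which 50 were held and 42 tested at 1 probe set per gene. Of the 42, 23 were called higher (54.8%, beside 30.1% of all genes tested), 4 lower (9.52%, beside 18.0%) and 15 were not called. The list was chosen with earlier results of these data known, so its shares describe the list and are not a test of the pathway. The median log2 fold change was 0.80 for the list and 0.23 for all genes tested. The count of genes called higher was between 17 and 25 under the alternatives run.

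Of the 6 other Notch ligands tested, 4 were higher and 0 lower. Dlk1, a Delta-like protein of embryonic tissues that lacks the Notch-binding DSL domain of other ligands, was at 2351 ± 2164 units in tumours and 166 ± 43.8 units in muscles (log2 fold change 3.31, SE 0.51, limma adjusted p = 0.000364), with a tumour mean of 1442 ± 858 units without tumour 5 (n = 4). Mfap2, a microfibril glycoprotein that can bind Notch1, was at 2388 ± 360.0 units in tumours and 265 ± 59.5 units in muscles (log2 fold change 3.11, limma adjusted p = 4.24e-06). Cntn1, a neural adhesion protein, was at 1395 ± 1192 units in tumours and 97.9 ± 17.6 units in muscles (log2 fold change 3.12, limma adjusted p = 0.0018); 3 of the 4 muscles lay below their floors, so the size of this change is uncertain. Dll4, the ligand of endothelial tip cells, was called narrowly (261 ± 112 units in tumours and 120.0 ± 49.1 units in muscles, limma adjusted p = 0.042). The call for Dll4 ended under 13 of 22 alternatives, with limma adjusted p up to 0.131; leaving out any one of tumours 1, 2 and 3 or muscles 2, 3 and 4 was enough.

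Of 9 genes of receptor glycosylation and ligand endocytosis, 6 were higher and 1 lower. Poglut1, which adds glucose to Notch, was at 1496 ± 419 units in tumours and 423 ± 85.1 units in muscles (log2 fold change 1.75, limma adjusted p = 0.000297). Lfng, a Fringe enzyme that biases receptors toward Delta-like ligands, was at 737 ± 69.1 units in tumours and 263 ± 70.5 units in muscles (log2 fold change 1.46, limma adjusted p = 0.000218). Rfng, another Fringe, was at 715 ± 266 units in tumours and 374 ± 44.8 units in muscles (log2 fold change 0.84, limma adjusted p = 0.0227), a call that ended with quantile normalization and without muscle 1, muscle 4 or tumours 1 and 4 (limma adjusted p up to 0.108). Pofut1, which adds fucose to Notch, was at least 1.67-fold higher on 1456323_at (limma adjusted p = 0.0203), where the tumour mean of 239 ± 228 units was 142 ± 74.8 units without tumour 1 (n = 4). Leaving out muscle 1 or muscle 4 ended that call (limma adjusted p = 0.0507 and 0.0594), and the other Pofut1 probe set had negative log2 fold changes wherever it was taken, as after leaving out tumour 1, 2 or 3. The one lower gene was Neurl1a, a ubiquitin ligase that drives ligand endocytosis, at 193 ± 150.5 units in tumours and 1259 ± 364 units in muscles (log2 fold change -2.79, limma adjusted p = 0.000261), with a tumour mean of 127 ± 35.6 units without tumour 5 (n = 4).

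Of 5 genes of receptor cleavage tested, 1 was called. Adam10, the protease of the first ligand-dependent cut, was at 3877 ± 477 units in tumours and 2404 ± 476 units in muscles (log2 fold change 0.70, limma adjusted p = 0.012). That call ended with the values as deposited (limma adjusted p = 0.12) and with arrays centred on their median (limma adjusted p = 0.142).

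Of 9 regulators in the receiving cell, 5 were higher and 1 lower. Dtx3, a Deltex ubiquitin ligase, was at 839.6 ± 200.4 units in tumours and 195 ± 59.2 units in muscles (log2 fold change 2.03, limma adjusted p = 8.87e-05). Aak1, a kinase of endocytosis that acts on Numb, was at 4121 ± 779 units in tumours and 1507 ± 449 units in muscles (log2 fold change 1.47, limma adjusted p = 0.000506). Nrarp, the feedback inhibitor, had 883, 987, 1742, 625 and 505 units in tumours 1 to 5, against 415, 149.8, 481 and 437 units in muscles 1 to 4. All 5 tumours lay above all muscles (log2 fold change 1.31, SE 0.41, limma adjusted p = 0.0207), and the call ended with quantile normalization and without muscle 2 (limma adjusted p = 0.0626 and 0.0534). Dtx1, a Deltex ligase that is also a Notch target, was at 838 ± 428 units in tumours and 336 ± 87.5 units in muscles (log2 fold change 1.16, limma adjusted p = 0.0179), a call that ended with quantile normalization and without muscle 1 (limma adjusted p = 0.0643 and 0.0545). Fbxw7, which marks the intracellular domain for degradation, was lower, at 555 ± 61.7 units in tumours and 843 ± 114 units in muscles (log2 fold change -0.58, limma adjusted p = 0.0202). The Fbxw7 call ended with arrays centred on genes of the ribosome and proteasome (limma adjusted p = 0.256) and without muscle 1, muscle 3, muscle 4 or tumours 1 and 4 (0.0541 to 0.0656).

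Of 10 genes of the nuclear complex and its corepressors tested, 6 were higher and 1 lower. Tle3, a Groucho corepressor, was at 3221 ± 1133 units in tumours and 328 ± 123 units in muscles (log2 fold change 3.24, limma adjusted p = 1.24e-05). Ctbp2, another corepressor, was at 3650.1 ± 353 units in tumours and 845 ± 72.8 units in muscles (log2 fold change 2.09, limma adjusted p = 7.97e-06). Hdac1, a histone deacetylase of several complexes, was at 4538 ± 654 units in tumours and 1126 ± 256 units in muscles (log2 fold change 2.01, limma adjusted p = 2.51e-05). Maml1, a Mastermind coactivator, was at 1344 ± 101 units in tumours and 483 ± 117 units in muscles on 1426769_s_at (log2 fold change 1.47, limma adjusted p = 0.000148), while another Maml1 probe set had a log2 fold change of -0.21 (limma adjusted p = 0.532). Kat2b, an acetyltransferase coactivator, was lower, at 1705 ± 614 units in tumours and 3331 ± 545 units in muscles (log2 fold change -1.02, limma adjusted p = 0.00792). The Kat2b call ended with arrays centred on genes of the ribosome and proteasome (limma adjusted p = 0.0758), and another of its probe sets gave 0.30 (limma adjusted p = 0.49). Rbpj, the DNA-binding factor of the complex, named here after its values were seen, was at 2058 ± 505 units in tumours and 1661 ± 222 units in muscles and was not called (log2 fold change 0.28, SE 0.21, limma adjusted p = 0.297).

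Of 8 other HES, HEY and partner genes held, 3 were tested. Hey2, the HEY factor of arteries and heart, was at 204 ± 64.2 units in tumours and 75.3 ± 13.8 units in muscles, where it was below the floor, which gives an at least 1.90-fold higher level in tumours (limma adjusted p = 0.00849). Bhlhe40, a repressor of the circadian and hypoxia responses, was lower, at 1269.5 ± 443 units in tumours and 3277 ± 767 units in muscles (log2 fold change -1.39, limma adjusted p = 0.00169). For all genes of this list, n was 5 tumours and 4 muscles and the error is the SD, except where a number of tumours is given.

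**Figure D4:**
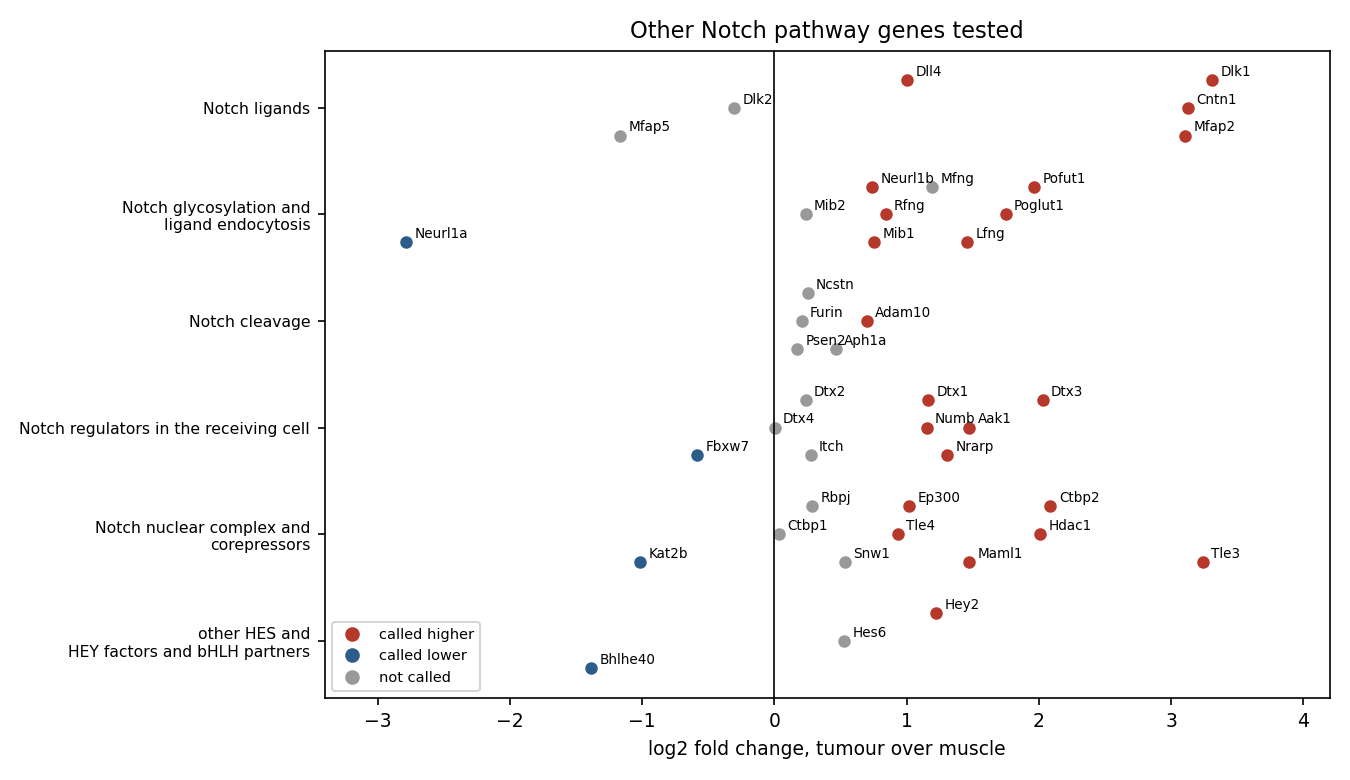
Log2 fold change of tumour over muscle for the tested genes of the wider Notch pathway, by class, with genes called higher in red, lower in blue and not called in grey. The 6 ligands had a median of 2.05 and the 5 cleavage genes a median of 0.25.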

How the data were processed

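MAS5 made the values, per the submitters' processing notes; its version and settings are not given in the sources used here. The deposited values are probe set intensity on a linear scale, without detection calls. Of 30508 probe sets, 7 controls, 496 with several gene symbols and 4424 with none (GEO's platform annotation) were left out. Arrays whose 2% trimmed means ran from 430 to 610.0 were scaled to a common one. Levels were log2(scaled intensity + 16), so fold changes of dim probe sets are understated. The 2 tissues were set against each other in limma 3.58.1 under R 4.3.3 (eBayes with an intensity trend, two-sided). Every member probe set was named, with up to 4 called genes per direction and class of the wider list. Members, lists and promoters were chosen with earlier results of these data known. Probe sets were not compared in level with each other. Alternatives covered 4 other scalings, a pseudocount of 1 or 64, changed filters, probe set choices and fits, the tumours labelled CC17 averaged, and each array left out; leaving out tumours 1 and 4, and pairs on other probe sets, were chosen after seeing the data. The fit was tested on simulated data.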

Additional observations from a re-analysis of the deposited data

Results flagged for a closer look

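In 3 of 36 groups of member values, 1 array stood apart from the rest of its group, where chance gives about 1 group in 20. Hes1 was at 1526 units in tumour 3, and the other tumours lay between 671 and 885 units. Jag2 was at 304 units in tumour 3, with the other tumours between 122 and 167 units. Notch3 on 1421964_at was at 177 units in muscle 1, with the other muscles between 117 and 119 units.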

How the results depend on the processing

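Over 24 alternatives, the calls for Notch2 1455556_at (log2 fold change 1.28 to 1.80), Jag1 1434070_at (2.58 to 3.04), Hes1 (1.22 to 1.71) and Hey1 (1.91 to 2.41) held under every one, with limma adjusted p of at most 0.00574. Jag1 1421106_at held in the 21 that tested it (1.99 to 3.69). The member probe sets called higher numbered 4 to 6. Those called lower numbered 1 with quantile normalization (Heyl) and 1 with array weights (Notch4). The other pathway genes called lower numbered 2 with arrays centred on genes of the ribosome and proteasome. The pairs that passed numbered 0 to 7 when single arrays were left out and 0 without tumours 1 and 4. Fewer arrays allow fewer splits, which raises the smallest exact p. Without tumours 1 and 4 it lay too high for any pair to pass, whatever the values. That 0 thus does not tell whether the pairs depend on these tumours. With single arrays left out, a pair could pass only if most pairs reached the smallest exact p together. The pairs that passed numbered 5 with Notch1 read on 1418633_at, 4 with Notch2 on 1451889_at, 5 with Notch3 on 1421964_at and 0 with Jag1 on 1421105_at. Of these, Notch1 minus Notch2 turned to 0.24, Notch2 minus Notch3 to -0.094 and Jag1 minus Dll1 to -0.12; the cause was not tested. Pofut1 turned to -0.42 as deposited, -0.48 with arrays centred on their median and -0.29 without tumours 1 and 4. With single arrays left out it ran from -0.39 to 2.33, and was negative only without tumour 1, 2 or 3 (-0.39, -0.24 and -0.31). The negative values came where another Pofut1 probe set was the brightest one. Maml1 turned to -0.21 and Kat2b to 0.30 when only probe sets ending in plain _at were used, which took another probe set. The median of all probe sets moved between -0.00 (arrays centred on their median) and 0.43 (genes of the ribosome and proteasome). Probe sets near the floor, as those of Notch4 and Jag2, carry little signal over background. No paired analysis was possible because the labels give no replicate numbers shared by tumours and muscles.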
